A study of Mus musculus with 8 samples.

Results

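The LMO2 complex and the transcription factors that work with it in red cell precursors were examined as 10 genes, chosen by symbol from the 47729 genes of the deposited count table: Lmo2, Tal1, Ldb1, Gata1, Lyl1, Tcf3, Cbfa2t3, Klf1, Zfpm1 and Gfi1b. All 10 were among the 13462 genes that passed the filter on low counts, with 2683 to 24776 counts per gene in the knockdown libraries and 2037 to 20990 in the scrambled ones. The genes were selected with the difference between these groups already known, so their own differences are described and carry no test. RNA was sequenced from leukaemic bone marrow cells of 4 mice with an shRNA against Fubp1 (knockdown) and of 4 mice with a scrambled shRNA. Both groups were C57BL/6, and both carried the retroviral BCR-ABL1 oncogene with a red fluorescent protein and a lentiviral shRNA with the Venus fluorescent protein. The donors had received 5-fluorouracil, and their transduced marrow was transplanted into recipients irradiated with 900 cGy, in which the disease resembles chronic myeloid leukaemia. Live cells that carried both reporters and lacked lineage markers were sorted. The shRNAs act in every transduced cell and not in a chosen cell type, the sort leaves a mixture of progenitors, and each library is 1 mouse.

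LMO2 has no DNA-binding domain of its own and serves as an adaptor. It holds together a dimer of TAL1 with an E protein, which reads E-box motifs, a GATA factor, which reads GATA motifs, and LDB1, which can pair with itself and so bring distant enhancers next to promoters. In red cell precursors this complex works beside KLF1, which reads CACCC motifs, at the globin genes and at many other erythroid genes. CBFA2T3, ZFPM1 and GFI1B adjust its output, mostly by bringing in corepressors or by binding GATA1.

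RefSeq promoter windows of 300 bases, from 250 before to 50 after the annotated start on GRCm38.p6, were at hand for 9 of the 10 genes, 13 windows in all, and Lmo2 had none. The windows of Klf1, Gfi1b, Gata1 and Lyl1 are shown as examples of genes that lay apart between the groups. Factors of this set read the motifs marked in them. The Gata1 and Lyl1 windows held CACCC and 0 GATAA matches. Ldb1 also lay apart, and its 3 windows are not printed, of which window 3 held 2 GATAA and 1 CACCC matches. Capitals mark GATAA and CACCC on either strand, so that TTATC and GGGTG are the same motifs read from the other strand.
Klf1, chr8:84901732-84902031, plus strand: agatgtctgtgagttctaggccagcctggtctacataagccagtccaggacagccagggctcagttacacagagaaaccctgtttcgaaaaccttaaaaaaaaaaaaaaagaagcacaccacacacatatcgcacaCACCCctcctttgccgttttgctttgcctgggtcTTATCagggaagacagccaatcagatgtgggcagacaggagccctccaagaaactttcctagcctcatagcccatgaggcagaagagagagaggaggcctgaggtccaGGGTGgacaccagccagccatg
Gfi1b, chr2:28621933-28622232, minus strand: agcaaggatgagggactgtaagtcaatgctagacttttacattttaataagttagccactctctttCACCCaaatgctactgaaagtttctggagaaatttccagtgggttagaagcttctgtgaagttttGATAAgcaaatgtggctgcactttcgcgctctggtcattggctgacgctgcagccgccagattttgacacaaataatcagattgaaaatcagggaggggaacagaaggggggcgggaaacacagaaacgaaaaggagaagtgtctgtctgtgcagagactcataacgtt
Gata1, chrX:7967861-7968160, minus strand: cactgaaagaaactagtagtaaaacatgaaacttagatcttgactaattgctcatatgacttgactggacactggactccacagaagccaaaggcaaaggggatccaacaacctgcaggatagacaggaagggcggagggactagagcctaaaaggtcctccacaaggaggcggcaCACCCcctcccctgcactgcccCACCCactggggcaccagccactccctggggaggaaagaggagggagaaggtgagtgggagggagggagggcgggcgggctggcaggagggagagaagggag
Lyl1, chr8:84701207-84701506, plus strand: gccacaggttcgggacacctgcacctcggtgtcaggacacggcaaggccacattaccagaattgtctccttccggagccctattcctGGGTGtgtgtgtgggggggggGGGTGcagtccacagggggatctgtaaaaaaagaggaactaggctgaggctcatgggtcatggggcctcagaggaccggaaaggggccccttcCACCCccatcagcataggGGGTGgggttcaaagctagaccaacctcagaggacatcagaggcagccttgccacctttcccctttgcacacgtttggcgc
GATAA stood in 5 of the 13 windows, against 25.4% of 32851 windows of all genes. CACCC stood in 12 of 13, against 57.5%, and an E-box (CANNTG) in 9 of 13, against 72.3%. The composite arrangement known for this complex, an E-box and a GATA motif 8 to 10 bases apart, was found in 1 window, of Cbfa2t3, against 1.63% of all windows. That match lies at chr8:122699208-122699226 on the minus strand and reads TATCactgtgacaCAGCTG, where capitals mark the GATA motif, read from the other strand, and the E-box, with 9 bases between them. It overlaps the GATAA match of the same window. These matches are letters in a window and no measure of binding.

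The targeted gene and the sorted population were checked first. Fubp1, which encodes a single-strand nucleic acid binding protein, measured 280.9, 228.0, 220.4 and 239.3 CPM in knockdown replicates 1 to 4, against 296.1, 284.3, 290.9 and 395.9 CPM in scrambled replicates 1 to 4. No knockdown library overlapped the scrambled range, and by edgeR's quasi-likelihood test with Benjamini-Hochberg adjustment over all genes the difference missed the threshold of 0.05 (log2 fold change -0.39, SE 0.12, adjusted p = 0.0604). Libraries held 22465303 to 44761356 counts. On the first principal component, with 61.1% of the variance, knockdown replicate 3 fell within the scrambled range, at 29.0, where the scrambled libraries ran from 13.7 to 57.3 and the other knockdown libraries from -81.2 to -34.1. On the second component, with 13.7% of the variance, knockdown replicate 3 stood apart from the scrambled libraries, at 42.5. There the scrambled libraries ran from -30.4 to 0.113 and the other knockdown libraries from -8.0 to 20.1. Summed erythroid markers came to 3106 to 5649 CPM in the knockdown libraries and 3635 to 4347 CPM in the scrambled ones. The cells thus carried much erythroid RNA in both groups. Summed T cell markers came to 2.92 to 12.2 CPM in the knockdown and 1.45 to 2.70 CPM in the scrambled libraries. Most of that sum was Lck, and Cd3e of the same list had no counts in any library.

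Of the 10 genes, Lmo2 stood furthest from its scrambled level, whereas Tal1, Tcf3, Cbfa2t3 and Zfpm1 overlapped between the groups. Ldb1, Gata1, Klf1 and Gfi1b were also lower in every knockdown library than in every scrambled one, and Lyl1 alone among the 10 was higher without overlap. Past an adjusted p of 0.05 over all genes were 5 lower genes, where 7.29% of all tested genes were called lower, and 1 higher gene, where 8.02% were called higher. The groups did not overlap for the same 5 genes, lower, beside 11.1% of all tested genes, and for Lyl1, higher, beside 9.54%. The median log2 fold change of the 10 was -0.21, and that of all tested genes 0.0012. Since the genes were chosen on this contrast, these counts describe the choice. The samples are bulk RNA, in which fewer cells of a type and less RNA per cell cannot be told apart.

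**Figure D1:**
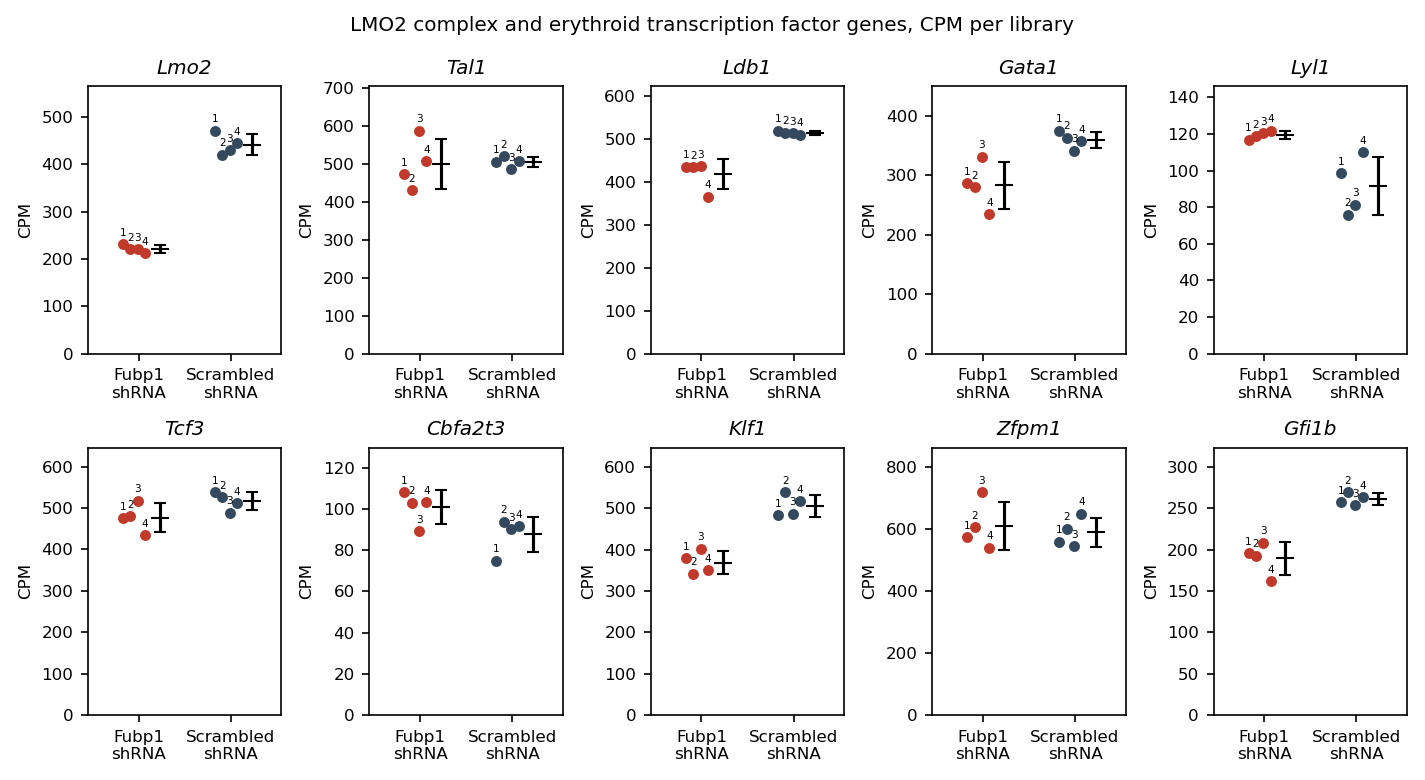
CPM of each of the 10 genes in each library, with Fubp1 shRNA libraries (red) left of scrambled shRNA libraries (blue); numbers are replicates, and the bars give the mean and SD of 4 libraries. Lmo2 lies at 211.6 to 230.6 CPM in the knockdown and at 420.1 to 471.1 CPM in the scrambled libraries, while Tal1 and Zfpm1 overlap.

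Lmo2 (ENSMUSG00000032698) lies on chromosome 2 from 103957986 to 103981878 (plus strand, with GRCm38 used for every gene position here). It measured 230.6, 220.1, 220.0 and 211.6 CPM in knockdown replicates 1 to 4, against 471.1, 420.1, 430.3 and 444.1 CPM in scrambled replicates 1 to 4. Every knockdown library lay below every scrambled one, with a gap of 189 CPM between the groups. The knockdown mean was 220.6 ± 7.81 CPM and the scrambled mean 441.4 ± 22.1 CPM (SD, n = 4 each), so the knockdown level was 49.97% of the scrambled level (log2 fold change -1.00, SE 0.054). Lmo2 was also one of the least variable genes within groups: 4.64% of all tested genes had a smaller pooled within-group SD of log2 CPM. Its mean CPM exceeded that of 96.0% of all tested genes, and genes of like level were not compared separately. With each library left out in turn, its log2 fold change stayed between -1.03 and -0.98, and knockdown replicate 3, which lay among the scrambled libraries on the first principal component, held 220.0 CPM of Lmo2. An overlapping gene on the opposite strand, 4931422A03Rik, had 2.33 ± 0.683 CPM in the knockdown and 3.05 ± 0.832 CPM in the scrambled libraries (SD, n = 4 each).

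Ldb1, the cofactor to which LMO2 binds through its LIM domains, was lower by much less. It lies on chromosome 19 from 46031570 to 46045214 (minus strand) and measured 435.2, 434.3, 436.6 and 365.3 CPM in knockdown replicates 1 to 4, against 518.8, 513.7, 512.3 and 509.1 CPM in scrambled replicates 1 to 4. The scrambled libraries lay within 9.69 CPM of each other, and knockdown replicate 4 lay 69.0 CPM below the next knockdown library. The knockdown level was 81.4% of the scrambled level (417.8 ± 35.04 against 513.5 ± 4.03 CPM, SD, n = 4 each; log2 fold change -0.30, SE 0.065). Leaving out knockdown replicate 4 gave -0.24. The Ldb1 call over all genes ended without scrambled replicate 1, 2 or 3, at fold changes of -0.30, -0.31 and -0.31.

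The bHLH partners of the complex did not move as a group. Tal1, the bHLH factor that LMO2 contacts directly (chromosome 4 from 115056426 to 115071755, plus strand), measured 472.2, 429.8, 586.9 and 507.2 CPM in knockdown replicates 1 to 4, against 505.1, 520.1, 485.9 and 506.5 CPM in scrambled replicates 1 to 4. The knockdown libraries spread on both sides of the scrambled ones, with replicate 3 the highest of all 8 and replicate 2 the lowest. Its fold change was -0.015 on the log2 scale, with an SE of 0.089, and ran from -0.11 without knockdown replicate 3 to 0.05 without knockdown replicate 2. Tcf3, which encodes the E proteins that pair with TAL1 (chromosome 10 from 80409514 to 80433647, minus strand), averaged 476.9 ± 34.1 CPM in the knockdown and 516.3 ± 21.5 CPM in the scrambled libraries (SD, n = 4 each; log2 fold change -0.11, SE 0.063). Knockdown replicate 3, at 517.9 CPM, lay above 2 of the scrambled libraries.

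Lyl1, a bHLH paralog of Tal1 that can take its place in early progenitors (chromosome 8 from 84701457 to 84704715, plus strand), was the gene of the set that was higher. It measured 117.0, 118.7, 120.5 and 121.9 CPM in knockdown replicates 1 to 4, against 98.5, 75.9, 81.3 and 110.1 CPM in scrambled replicates 1 to 4. The knockdown libraries lay within 4.93 CPM of each other and above the scrambled ones, which spread over 34.1 CPM. The log2 fold change was 0.39 (SE 0.11), from 0.30 without scrambled replicate 2 to 0.47 without scrambled replicate 4. The Lyl1 call remained only without knockdown replicate 3 (0.37) or scrambled replicate 4, and ended without any other library at fold changes of 0.30 to 0.41. Lyl1 lies within the span of Nfix on the opposite strand, and Nfix measured 81.4 ± 9.03 CPM in the knockdown and 98.7 ± 3.35 CPM in the scrambled libraries (SD, n = 4 each). Without a known strand setting of the counting, a share of Nfix reads in the Lyl1 counts was not tested.

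Of the other erythroid regulators, Gata1, Klf1 and Gfi1b were lower and Zfpm1 overlapped. Gata1, the GATA factor of the complex in red cell precursors and megakaryocytes (chromosome X from 7959260 to 7978071, minus strand), measured 286.4, 279.9, 331.3 and 234.6 CPM in knockdown replicates 1 to 4, against 375.4, 363.6, 341.6 and 357.4 CPM in scrambled replicates 1 to 4. The groups came close, with knockdown replicate 3 only 10.3 CPM below scrambled replicate 3. The knockdown level was 78.8% of the scrambled level (log2 fold change -0.34, SE 0.095), from -0.44 without knockdown replicate 3 to -0.27 without knockdown replicate 4. The Gata1 call ended without knockdown replicate 1 or 2 or without any 1 of the scrambled libraries, at fold changes of -0.38 to -0.34.

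Zfpm1, which encodes the GATA1 cofactor FOG1 (chromosome 8 from 122282141 to 122337251, plus strand), did not follow Gata1. It measured 572.7, 605.4, 718.9 and 539.2 CPM in knockdown replicates 1 to 4, against 559.5, 601.3, 545.1 and 649.6 CPM in scrambled replicates 1 to 4. Its highest and its lowest value were both in knockdown libraries, replicates 3 and 4, and the fold change was 0.05 on the log2 scale (SE 0.096; -0.05 without knockdown replicate 3). 

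Klf1 and Gfi1b were lower by almost the same factor. Klf1, the CACCC-binding activator of adult beta-globin (chromosome 8 from 84901928 to 84905291, plus strand), measured 379.3, 342.6, 402.8 and 350.4 CPM in knockdown replicates 1 to 4, against 483.6, 539.7, 487.3 and 517.7 CPM in scrambled replicates 1 to 4. Gfi1b, a repressor that recruits the histone demethylase KDM1A (chromosome 2 from 28609450 to 28621982, minus strand), measured 195.9, 192.9, 208.6 and 161.7 CPM in knockdown replicates 1 to 4, against 257.5, 269.6, 254.0 and 263.6 CPM in scrambled replicates 1 to 4. For both genes the highest knockdown library, replicate 3, stayed clear of the lowest scrambled one, by 80.7 CPM for Klf1 and 45.4 CPM for Gfi1b. Knockdown levels were 72.7% of the scrambled level for each, with log2 fold changes of -0.46 (SE 0.067) for Klf1 and -0.46 (SE 0.077) for Gfi1b. Across the fits that left out a library the values ran from -0.51 to -0.42 for Klf1 and from -0.52 to -0.39 for Gfi1b.

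Cbfa2t3, which encodes the corepressor ETO2 found with TAL1 (chromosome 8 from 122625141 to 122699109, minus strand), was the least abundant of the 10 per length. It measured 108.1, 103.0, 89.1 and 103.1 CPM in knockdown replicates 1 to 4, against 74.8, 93.7, 90.2 and 91.6 CPM in scrambled replicates 1 to 4. Knockdown replicate 3 lay below 3 of the scrambled libraries, while the other knockdown libraries lay above them all. The log2 fold change was 0.20 (SE 0.089), and 0.12 without scrambled replicate 1, the lowest library.

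**Figure D2:**
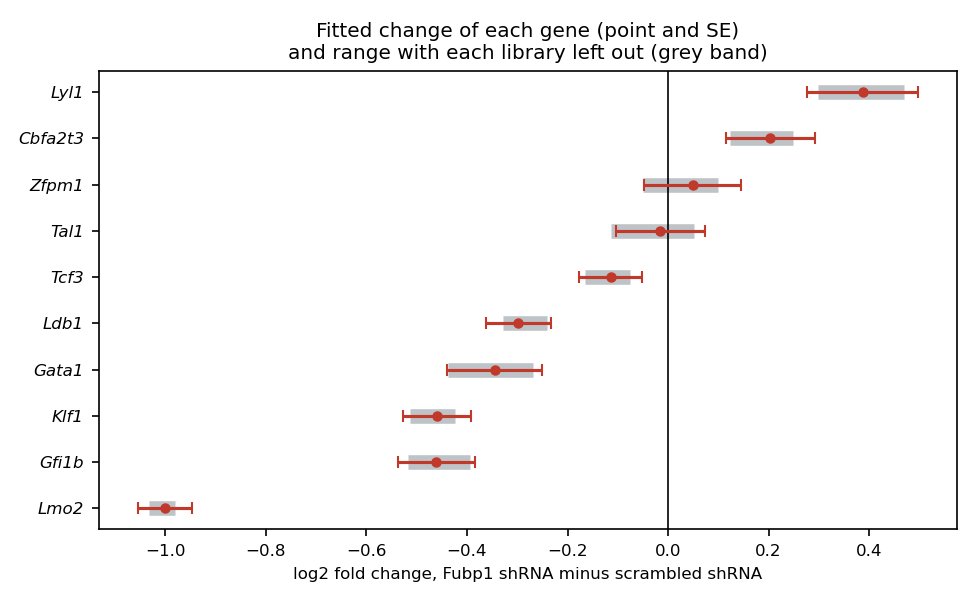
Fitted log2 fold change of each gene, Fubp1 shRNA minus scrambled shRNA (point), with its SE (bar) and the range over the 8 fits that each left out a library (grey band). Lmo2 lies at -1.00, apart from Gfi1b and Klf1 at -0.46, and the band of Tal1, -0.11 to 0.05, crosses 0.

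The knockdown libraries differed among themselves across the whole set. In knockdown replicate 3, 8 of the 10 genes lay above their knockdown mean of log2 CPM, with a median deviation of 0.126, and in knockdown replicate 4, 3 of 10 did, with a median of -0.101. Among the scrambled libraries the medians ran from -0.0546 to 0.0315. The pooled within-group SD of log2 CPM had a median of 0.125 over the 10 genes and of 0.188 over all tested genes. Each of the 10 had a mean CPM above that of at least 78.1% of all tested genes, and these medians are not matched for level. Knockdown replicate 3 had the most erythroid marker RNA (5649 CPM summed) and the least early granulocyte marker RNA of its group (86.0 CPM). Knockdown replicate 4 had the most early granulocyte marker RNA (3591 CPM). Its erythroid sum was 4441 CPM, and the lowest of the group was 3106 CPM, in replicate 2. Immediate early response genes summed to 3230, 5809, 6330 and 2288 CPM in knockdown replicates 1 to 4. Their sums were 4190, 3230, 1984 and 2660 CPM in scrambled replicates 1 to 4. The part of any of these lists in the levels of the 10 genes was not tested. A fit added after seeing the data took the level of the 6 early granulocyte markers as a covariate. In it Lmo2 stood at -0.96, Klf1 at -0.40, Gfi1b at -0.35, Ldb1 at -0.23 and Lyl1 at 0.49, whereas Gata1 stood at -0.16 and Zfpm1 at 0.22. These markers summed to 86.0 to 3591 CPM in the knockdown and 35.5 to 330.4 CPM in the scrambled libraries. Group and covariate thus go partly together, and this fit cannot fully tell them apart.

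Levels of different genes were compared as CPM per kilobase of annotated exon. In the knockdown libraries Klf1 was highest, at 241.0 ± 18.1 CPM per kb, and Zfpm1 next, at 173.9 ± 22.3, followed by Tcf3 (118.1 ± 8.44), Gata1 (116.1 ± 16.2), Tal1 (114.0 ± 15.2), Gfi1b (103.7 ± 10.9) and Lmo2 (101.8 ± 3.61), and from Tcf3 to Lmo2 each gene overlapped the next in that order. Ldb1 (90.7 ± 7.61), Lyl1 (66.4 ± 1.20) and Cbfa2t3 (12.04 ± 0.974) came below them, each without overlap with the gene above. In the scrambled libraries Klf1 was again highest, at 331.4 ± 17.4 CPM per kb, and Lmo2 stood next, at 203.8 ± 10.2, above Zfpm1 at 168.1 ± 13.4 without overlap (SD, n = 4 for each of these means). Gata1 (147.5 ± 5.76) and Gfi1b (142.7 ± 3.75) overlapped, as did Tal1 (115.2 ± 3.21) and Ldb1 (111.5 ± 0.875), with Tcf3 (127.8 ± 5.32) between the pairs, and Lyl1 (50.8 ± 8.72) and Cbfa2t3 (10.5 ± 1.03) were lowest. Lmo2 thus ranked 7 of 10 in the knockdown and 2 of 10 in the scrambled libraries.

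Ratios taken within a library remove its total count and its scaling factor. The ratio of Lmo2 to Ldb1, in CPM per kb, was 1.13, 1.08, 1.07 and 1.23 in knockdown replicates 1 to 4, against 1.93, 1.74, 1.79 and 1.86 in scrambled replicates 1 to 4. Against Tal1 the Lmo2 ratio was 0.987, 1.04, 0.758 and 0.843 in knockdown replicates 1 to 4, against 1.89, 1.63, 1.79 and 1.77 in scrambled replicates 1 to 4. Lmo2 mRNA per kilobase was thus close to that of Tal1 and Ldb1 in the knockdown libraries and well above both in the scrambled ones, with no overlap for either ratio. The ratio of Gata1 to its cofactor gene Zfpm1 averaged 0.668 ± 0.0385 in the knockdown and 0.881 ± 0.0721 in the scrambled libraries, again without overlap. That of Cbfa2t3 to Ldb1 averaged 0.134 ± 0.0177 in the knockdown and 0.0939 ± 0.0098 in the scrambled libraries, also without overlap and in the other direction. The ratio of Lyl1 to Tal1 overlapped, at 0.590 ± 0.0707 in the knockdown and 0.441 ± 0.0760 in the scrambled libraries, and so did those of Klf1 to Gata1 (2.09 ± 0.206 and 2.25 ± 0.137) and of Gfi1b to Gata1 (0.897 ± 0.0387 and 0.969 ± 0.0366). The ratio of Gata2 to Gata1, which falls as red cell precursors mature, was 0.183 ± 0.0450 in the knockdown and 0.192 ± 0.0191 in the scrambled libraries and overlapped too (SD, n = 4 each for all these ratios).

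**Figure D3:**
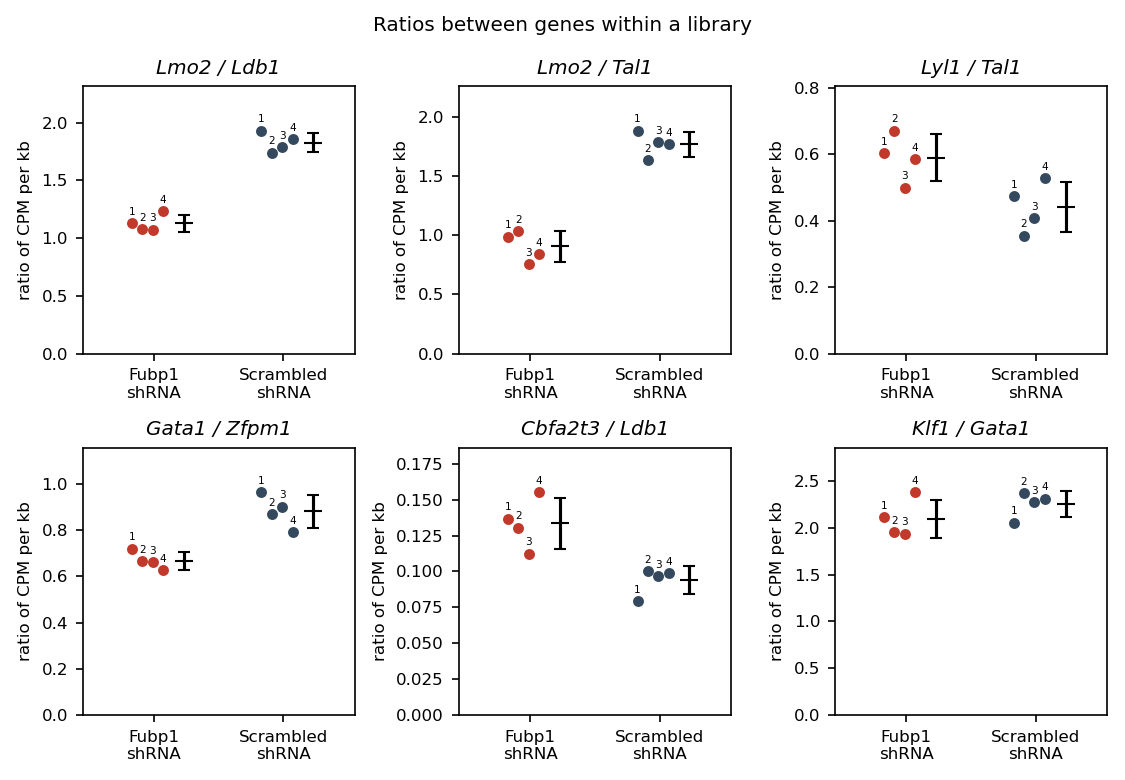
Ratios between genes within each library, in CPM per kb, with Fubp1 shRNA libraries (red) left of scrambled shRNA libraries (blue) and the mean and SD of 4 libraries. The ratios of Lmo2 to Ldb1 and to Tal1 do not overlap between the groups, whereas those of Lyl1 to Tal1 and of Klf1 to Gata1 do.

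The genes whose pattern across the 8 libraries was most like that of Lmo2, Klf1 and Gata1 were found among 9287 genes that averaged 5 CPM or more, by the root mean square difference of gene-centred log2 CPM. Nearest to Lmo2 were Extl3, a glycosyltransferase of heparan sulfate synthesis (difference 0.0815), Mrps24, a mitochondrial ribosomal protein (0.0962), and Rcbtb1 (0.124). Extl3 measured 61.6 ± 4.48 CPM in the knockdown and 119.3 ± 5.32 CPM in the scrambled libraries, and Mrps24 47.9 ± 4.47 and 94.4 ± 3.96 CPM (SD, n = 4 each). Nearest to Klf1 were the predicted gene Gm9625 (0.026), Epor, the erythropoietin receptor (0.0450), and Polr3k, a subunit of RNA polymerase III (0.0501). Nearest to Gata1 were Mical3 (0.0425), Ifrd2 (0.0502) and Adcy6 (0.0567). None of the other 9 genes of the set was among these, which says little, since only 3 of the 9287 genes were kept each time. The measure ranks likeness of levels only, and all 8 libraries enter it, so it also carries the group difference.

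Of 21 partners and paralogs of the complex 13 were tested, and 1 rose and 0 fell, beside 8.02% of all tested genes called higher and 7.29% called lower. Lmo4, a LIM-only relative of LMO2, measured 16.2, 14.01, 9.93 and 27.9 CPM in knockdown replicates 1 to 4, against 8.19, 9.39, 9.14 and 6.16 CPM in scrambled replicates 1 to 4 (log2 fold change 1.05, SE 0.30, edgeR quasi-likelihood adjusted p = 0.0478). Its lowest knockdown library, replicate 3, was 0.545 CPM above the highest scrambled one. At an unadjusted p under 0.05 edgeR had 5 of the list higher and 1 lower, and DESeq2 called 4 higher and 1 lower after adjustment. Over all genes DESeq2 called 2023 higher and 1528 lower, and the share of all genes at the unadjusted threshold is not given here. Lmo1 averaged 1.31 CPM in the knockdown and 0.183 CPM in the scrambled libraries, and Lmo3 had 1 count in all. Gata2, the GATA factor of the complex in earlier progenitors, measured 115.7 ± 35.9 CPM in the knockdown and 153.2 ± 20.2 CPM in the scrambled libraries (SD, n = 4 each) and overlapped. Ssbp3, which protects LDB1 from degradation, measured 219.4 ± 26.1 and 259.1 ± 7.999 CPM, and Runx1, a partner in stem cells and megakaryocytes, 79.6 ± 25.9 and 51.1 ± 3.87 CPM, and neither passed. The list median was 0.11 on the log2 scale. The Lmo4 call remained without knockdown replicate 3 and ended without any other library (adjusted p 0.0738 to 0.113 by edgeR). Without knockdown replicate 3, edgeR called 4 of the list higher, Lmo4, Runx1, Gfi1 and Lmo1, and Ssbp3 lower. In that fit 1956 of all 13866 tested genes were called higher and 1469 lower.

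Of 19 corepressor subunits, all tested, 3 fell and 1 rose, with a median of -0.05 on the log2 scale, where 7.29% of all tested genes were called lower and 8.02% higher. The genes that fell were Mta2 and Mbd2, of the NuRD complex, and Rcor1, the CoREST subunit that binds KDM1A. Mta2 measured 498.4 ± 23.9 CPM in the knockdown and 609.8 ± 21.1 CPM in the scrambled libraries (log2 fold change -0.29, SE 0.053, edgeR quasi-likelihood adjusted p = 0.0124, SD, n = 4 each). Mbd2 measured 228.2 ± 18.4 and 286.4 ± 14.2 CPM (edgeR adjusted p = 0.0189), and Rcor1 231.4 ± 17.3 and 281.4 ± 16.3 CPM (edgeR adjusted p = 0.0287). Phf21a, another reader protein of the CoREST complex, rose to 12.8 ± 3.01 CPM in the knockdown, against 8.16 ± 1.27 CPM in the scrambled libraries (edgeR adjusted p = 0.0490). Kdm1a itself measured 141.6 ± 3.74 and 149.4 ± 2.93 CPM and was not called. The Mta2 call held in all 8 fits without a library. The Mbd2 call ended without scrambled replicate 1 or 2 (edgeR adjusted p 0.0504 to 0.0579), the Rcor1 call without every library but knockdown replicate 3 and scrambled replicate 4 (0.0520 to 0.0837), and the Phf21a call without every library but knockdown replicate 3 (0.0756 to 0.118).

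Of 30 erythroid target genes 29 were tested, and 3 rose and 3 fell, with a median of 0.09 on the log2 scale. The shares are close to the 8.02% of all tested genes called higher and the 7.29% called lower, so the counts do not set this list apart. Those that fell were Ermap, a membrane protein of red cell precursors, Epor and Car2, carbonic anhydrase 2. Ermap measured 969.0, 893.2, 1127 and 949.2 CPM in knockdown replicates 1 to 4, against 1439, 1543, 1638 and 1423 CPM in scrambled replicates 1 to 4 (log2 fold change -0.62, SE 0.081, edgeR adjusted p = 0.00462). Epor measured 216.5 ± 16.9 CPM in the knockdown and 290.4 ± 14.6 CPM in the scrambled libraries (log2 fold change -0.42, edgeR adjusted p = 0.00876), and Car2 2112 ± 404 and 3458 ± 492 CPM (-0.71, edgeR adjusted p = 0.0192; SD, n = 4 each). No knockdown library reached the scrambled range of any of the 3.

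Those that rose were Alas2, the erythroid first enzyme of haem synthesis, and the adult beta-globin genes Hbb-bs and Hbb-bt. Alas2 measured 193.7, 103.1, 238.2 and 153.2 CPM in knockdown replicates 1 to 4, against 67.3, 50.6, 42.2 and 100.4 CPM in scrambled replicates 1 to 4 (log2 fold change 1.41, SE 0.33, edgeR adjusted p = 0.0299). Hbb-bs averaged 920.5 ± 251 CPM in the knockdown and 298.3 ± 135 CPM in the scrambled libraries (edgeR adjusted p = 0.0230), and Hbb-bt 605.1 ± 196 and 269.7 ± 99.8 CPM (edgeR adjusted p = 0.0440; SD, n = 4 each). The Alas2 groups lay only 2.71 CPM apart at their closest, and the globin counts are uncertain, since these genes have near-identical copies and how the counting treated reads common to them is not known. The knockdown libraries held less Klf1, Gata1, Epor and Ermap RNA and more beta-globin and Alas2 RNA, while Slc4a1 and Epb42, further genes of red cell precursors, were fitted above 0 and missed the threshold.

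Calls in the erythroid list moved with single libraries. Ermap and Epor kept theirs in all 8 fits without a library. The Car2 call ended without knockdown replicate 1 or 2 or scrambled replicate 1, 2 or 3 (edgeR adjusted p 0.0500 to 0.0617), Hbb-bs without knockdown replicate 1 or scrambled replicate 2 or 3 (0.0512 to 0.0692), and Alas2 without knockdown replicate 1 or scrambled replicate 1, 2 or 3 (0.0663 to 0.0879). Hbb-bt kept its call without knockdown replicate 2 or scrambled replicate 4 and lost it without any other library (edgeR adjusted p 0.0606 to 0.102). Without knockdown replicate 3, the library with the most erythroid marker RNA, edgeR called 8 of the list lower and 2 higher. In that fit 1469 of all 13866 tested genes were called lower and 1956 higher. Those called lower there beyond Ermap, Epor and Car2 included Urod, Rhag, Rhd and Ank1.

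**Figure D4:**
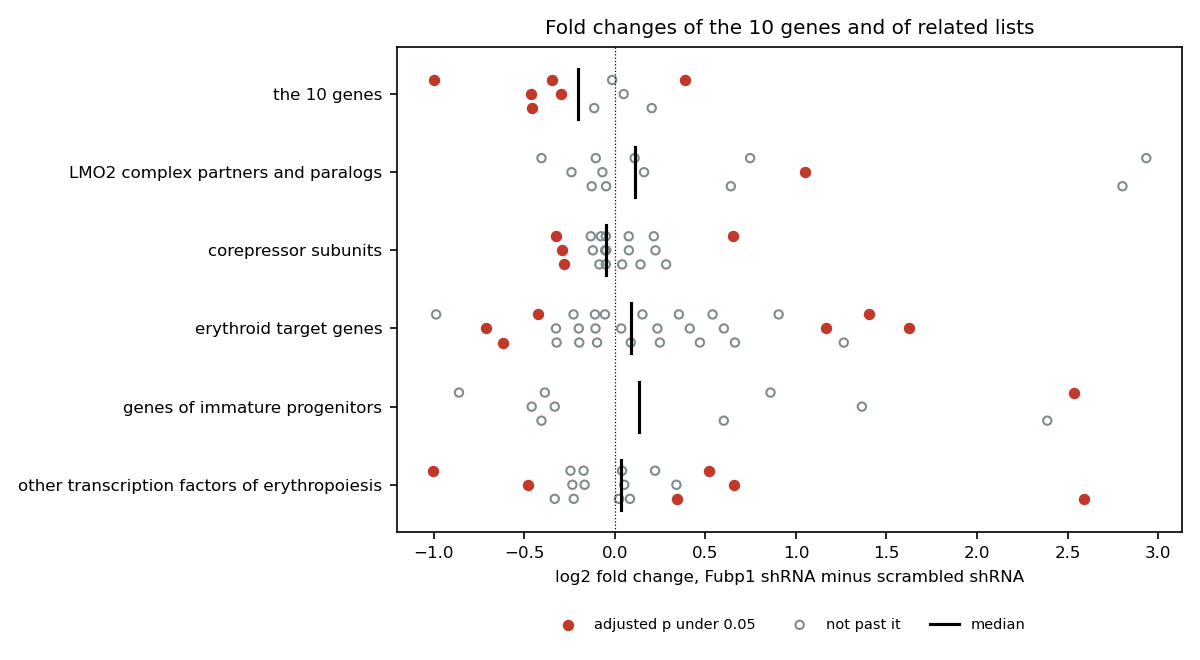
Log2 fold changes, Fubp1 shRNA minus scrambled shRNA, of the 10 genes and of the tested genes of 5 related lists; filled red points passed an adjusted p of 0.05 by edgeR, open points did not, and bars mark medians. The median of the 10 lies at -0.21 and those of the lists between -0.05 and 0.13; the red points of the 10 are genes selected on this contrast.

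Of 10 genes of immature progenitors, all tested, 1 rose and 0 fell, with a median of 0.13, beside 8.02% of all tested genes called higher and 7.29% lower. At an unadjusted p under 0.05 edgeR had 3 higher and 0 lower, and DESeq2 called 3 higher and 0 lower after adjustment. Over all genes DESeq2 called 2023 higher and 1528 lower, and the share of all genes at the unadjusted threshold is not given here. Spi1, which encodes PU.1, a myeloid factor that binds and opposes GATA1, measured 26.7, 18.6, 3.27 and 54.9 CPM in knockdown replicates 1 to 4, against 2.69, 4.71, 5.64 and 4.81 CPM in scrambled replicates 1 to 4 (log2 fold change 2.54, SE 0.72, edgeR adjusted p = 0.0490). The groups overlapped, because knockdown replicate 3 lay within the scrambled range, and the call remained without that library and ended without any other (edgeR adjusted p 0.0766 to 0.117). The early granulocyte markers ran in the same order within the knockdown, at 1964, 943.0, 86.0 and 3591 CPM summed in knockdown replicates 1 to 4, against 35.5, 164.3, 330.4 and 83.5 CPM in scrambled replicates 1 to 4, and their part in the Spi1 difference was not tested. Kit, the stem cell factor receptor, measured 78.7 ± 27.5 CPM in the knockdown and 142.7 ± 70.4 CPM in the scrambled libraries, and Myb 218.7 ± 47.1 and 275.3 ± 74.1 CPM, and neither was called (SD, n = 4 each).

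Of 18 other transcription factors of erythropoiesis, all tested, 4 rose and 2 fell, with a median of 0.03, where 8.02% of all tested genes were called higher and 7.29% lower. Bach1, the haem-sensing repressor of globin and haem oxygenase genes, rose to 67.1 ± 4.52 CPM in the knockdown, against 46.8 ± 3.11 CPM in the scrambled libraries (log2 fold change 0.52, SE 0.073, edgeR adjusted p = 0.00527). Its small MAF partner gene Mafg rose to 173.4 ± 21.1 CPM, against 136.9 ± 12.8 CPM (edgeR adjusted p = 0.0493), and the ETS family genes Etv6 to 100.7 ± 27.1 against 64.0 ± 2.62 CPM (edgeR adjusted p = 0.0371) and Fli1 to 10.9 ± 7.84 against 1.799 ± 0.818 CPM (edgeR adjusted p = 0.0372). Nfia fell to 35.4 ± 9.26 CPM in the knockdown, against 71.0 ± 15.6 CPM in the scrambled libraries (log2 fold change -1.01, SE 0.22, edgeR adjusted p = 0.0237), and Stat5a, a transducer of erythropoietin signalling, to 95.7 ± 11.4 against 133.4 ± 17.3 CPM (edgeR adjusted p = 0.0278; SD, n = 4 each). Bach1 and Nfia did not overlap between the groups, and Fli1 did, through knockdown replicate 3 at 1.94 CPM. Nfe2, the erythroid and megakaryocytic bZIP factor, measured 145.7 ± 19.8 and 143.4 ± 14.8 CPM and was not called.

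Of these calls, the Bach1 call held in all 8 fits without a library. Nfia lost its call without knockdown replicate 1 or 2 or scrambled replicate 1, 2 or 3 (edgeR adjusted p 0.0530 to 0.0731), and Stat5a without knockdown replicate 2 or 4 or scrambled replicate 1, 2 or 3 (0.0529 to 0.0885). The Etv6 call remained without knockdown replicate 3 or 4 (0.0780 to 0.0954 elsewhere by edgeR), that of Fli1 without knockdown replicate 3 (0.0669 to 0.0982 elsewhere), and that of Mafg without knockdown replicate 1 (0.0547 to 0.133 elsewhere). Without knockdown replicate 3, edgeR called 3 of the list higher and 5 lower. In that fit 1956 of all 13866 tested genes were called higher and 1469 lower.

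Of the markers of other cells that the sort could hold, those of megakaryocytes and, at low levels, those of T cells did not overlap between the groups. Megakaryocyte markers summed to 137.6 to 218.3 CPM in the knockdown and 69.1 to 87.1 CPM in the scrambled libraries, and 2 of 7 tested rose, Itga2b and Gp1ba, by edgeR. Itga2b, the platelet integrin gene, averaged 127.1 CPM in the knockdown and 41.1 CPM in the scrambled libraries. Of the 6 early granulocyte markers edgeR called 0 after adjustment, whereas all 6 were higher at an unadjusted p under 0.05 and DESeq2 called all 6, with Mpo at 983.4 ± 916 CPM in the knockdown and 91.9 ± 76.5 CPM in the scrambled libraries (SD, n = 4 each). Over all genes DESeq2 called 2023 higher and 1528 lower, and the share of all genes at the unadjusted threshold is not given here. Within the knockdown each of the 6 was lowest in replicate 3 and highest in replicate 4, so they are not separate results. Summed, knockdown replicate 3 (86.0 CPM) lay within the scrambled range of 35.5 to 330.4 CPM. Summed monocyte and macrophage markers ran from 10.6 to 52.3 CPM in the knockdown and 8.52 to 12.6 CPM in the scrambled libraries, and mast cell and basophil markers from 4.25 to 79.8 and from 5.74 to 21.8 CPM. Late granulocyte, B cell, T cell and eosinophil markers stayed at or below 32.6 CPM summed in every library. Of these, T cell markers ran from 2.92 to 12.2 CPM in the knockdown and from 1.45 to 2.70 CPM in the scrambled libraries. Gata1, Tal1, Zfpm1, Gfi1b, Lmo2 and Ldb1 are also active in megakaryocytes or mast cells, and the part of these cells in their levels was not tested.

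**Figure D5:**
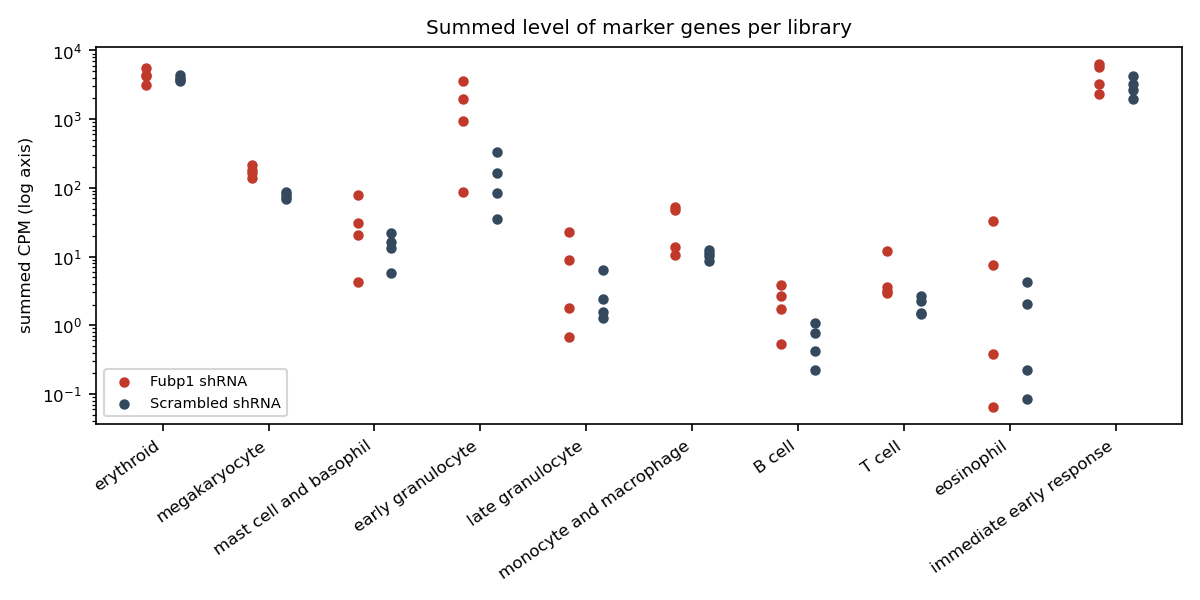
Summed CPM of marker genes per library on a log axis, with Fubp1 shRNA libraries (red) left of scrambled shRNA libraries (blue). Megakaryocyte markers do not overlap between the groups, at 137.6 to 218.3 and 69.1 to 87.1 CPM, and early granulocyte markers spread from 86.0 to 3591 CPM within the knockdown.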

How the data were processed

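The authors deposited raw read counts, whole numbers with no normalization, for each gene in each library. Per the submitters' processing notes CASAVA 1.8 and DESeq2 1.18.1 were used, whereas the sources used here do not name the aligner, the counter and its strand setting, the annotation or the build. Per the labels' protocols libraries were stranded, ribosome-depleted total RNA from 500 ng. These protocols list a pair of depletion kits without assigning either to a library. The number in a column's name ties it to the sample with that number in its description, and 0 columns were left unmatched. The authors' own comparison columns were not used.

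Counts were tested with edgeR 4.0.16 (R 4.3.3): filterByExpr, TMM scaling, a robust quasi-likelihood fit with group as the only term, and Benjamini-Hochberg adjustment over 13462 genes at a threshold of 0.05, two-sided. Fold changes are knockdown minus scrambled. CPM were scaled by library size and TMM factor, and log2 CPM had a prior count of 2. Positions and exon lengths came from GENCODE M21 (GRCm38), which held 47224 of the 47729 gene IDs, and promoter windows from RefSeq (GRCm38.p6). The steps were tested on simulated data. The 10 genes, the related lists and the marker lists were chosen with earlier results of these data known. Named were the 10 genes, every called gene of a related list (up to 6 per direction), the 3 genes nearest in pattern to Lmo2, Klf1 and Gata1, and the target; genes not called were named as further examples after their values were seen.

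Alternatives were RLE size factors, no filter, a filter at 1 CPM, DESeq2 1.42.0, limma-voom (limma 3.58.1), the replicate number as a block, and each library left out. Each library being 1 mouse, errors include variation between mice. Some genes of the lists are counted but not reported here by name.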

Additional observations from a re-analysis of the deposited data

Results flagged for a closer look

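A sample was picked out where its distance to the nearest other sample of its group exceeded Dixon's limit for groups of 4, as a share of the group's whole range. Of 38 groups checked, 5 had such a sample, and chance gives about 1 in 20. Ldb1 in knockdown replicate 4, at 365.3 CPM, lay below the other knockdown libraries. The ratio of Gfi1b to Gata1 stood low in knockdown replicate 3 (0.839) and in scrambled replicate 1 (0.914). In scrambled replicate 1 the ratios of Tal1 to Tcf3 (0.865) and of Cbfa2t3 to Ldb1 (0.0793) were also the lowest of their group.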

How the results depend on the processing

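Counts below are genes called higher, then lower, in the knockdown by an adjusted p under 0.05. The 10 genes kept 1 and 5 with RLE size factors, no filter, the filter at 1 CPM, DESeq2 and limma-voom, and 0 to 1 and 3 to 5 with a library left out. With the replicate block they had 0 and 1 (Lmo2), and with the early granulocyte covariate, chosen after seeing the data, 0 and 2 (Lmo2 and Klf1). That covariate also moved the log2 fold changes of Gata1 to -0.16, Tcf3 to -0.00052, Cbfa2t3 to 0.039 and Zfpm1 to 0.22. No log2 fold change of a called gene among the 10 changed sign. Correlations of same-numbered deviations, taken over all tested genes, were -0.42, 0.022, -0.558 and -0.22, and showed no pairing by replicate number. They also carry all other differences between libraries, so they cannot exclude that same-numbered libraries were handled together. All tested genes gave 2023 and 1528 with DESeq2, 195 and 205 with the block, 471 and 230 with the covariate, and 275 to 1956 and 251 to 1469 with a library left out. Partners and paralogs called higher were 4 with DESeq2, 0 with no filter, limma-voom, the block or the covariate, and 0 to 4 with a library left out; 1 was lower with DESeq2, and 0 to 1 with a library left out. Corepressor subunits called higher were 2 with DESeq2 or the 1 CPM filter, 0 with no filter, limma-voom, the block or the covariate, and 0 to 1 with a library left out; lower were 0 with the block or the covariate and 1 to 3 with a library left out. Erythroid targets called higher were 6 with DESeq2, 0 with no filter or the block, and 0 to 6 with a library left out; lower were 2 to 8 with a library left out. Immature progenitor genes called higher were 3 with DESeq2, 0 with no filter, limma-voom, the block or the covariate, and 0 to 3 with a library left out; lower were 2 with the covariate. Other transcription factors called higher were 1 with no filter, limma-voom or the block, 2 with the covariate, and 1 to 3 with a library left out; lower were 5 with DESeq2, 1 with no filter or the covariate, and 0 to 5 with a library left out. The cause of these shifts was not tested. The median of all tested genes lay between -0.014 and 0.068 on the log2 scale under every alternative.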
